A study of Mus musculus with 8 samples.

Results

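The BCL2 family decides at the outer mitochondrial membrane whether a cell enters apoptosis, and 10 of its genes were followed here by name: the pro-survival genes Mcl1, Bcl2 and Bcl2l1 (Bcl-xL), the BH3-only genes Bcl2l11 (Bim), Bid, Bmf, Bbc3 (Puma) and Pmaip1 (Noxa), and the effectors Bax and Bak1. Of these 10 genes, 9 had at least 1 probe set assigned to that gene alone, against 18193 genes on the whole array; Bax was not analysed here. RNA was measured on 8 Affymetrix mouse genome arrays from granulocytic myeloid-derived suppressor cells (Gr-MDSCs), immature neutrophil-like cells that restrain T cells. The cells were treated for 6 h with 0.1 µM Dactolisib, a dual PI3K and mTOR inhibitor (n = 2), with 0.1 µM Dasatinib, a tyrosine kinase inhibitor (n = 2), or with DMSO, the solvent (n = 4). The sample titles place each array in its group; the treatment field of the 2 Dasatinib samples names Dactolisib instead, so the Dasatinib values rest on the titles. All groups came from castration-resistant prostate tumors of CPPSML males, labelled as 12 to 16 weeks old. These mice carry floxed Smad4L/L, p53L/L and PtenL/L alleles deleted by PB-Cre+, with LSL-LucL/+ and mTmGL/+ as reporters. In this model Cre is driven by the probasin promoter of the prostate epithelium, so the deletions are those of the tumor cells and the sorted Gr-MDSCs are host cells. The males had been castrated at 8 to 12 weeks, when tumors reached 150 mm3, and then fed enzalutamide for 4 weeks. The sources used here do not say whether replicates came from separate animals, so the p-values below measure only the spread between these arrays.

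Pro-survival members hold the effectors Bax and Bak1 in check. BH3-only members, made or activated under stress, bind the pro-survival members or the effectors, and freed effectors open the outer membrane and release cytochrome c. Neutrophils are short-lived cells in which Mcl1, a protein of rapid turnover, is the main pro-survival member, while Bim is a main driver of their death. PI3K and Akt signaling restrains FoxO factors, which can switch on Bim and Puma, and mTOR signaling supports translation of MCL1. All values below are mRNA signals, and protein was not part of these data.

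The 9 genes had 30 probe sets of their own, of which 27 passed the filter on mean signal and were tested among the brightest 30024 of 45037 probe sets, which stand for 14237 genes. The 3 that did not pass were 2 of the 5 for Bcl2 and 1 of the 4 for Bcl2l1. A gene is represented by its probe set with the highest mean log2 signal unless another is named. Values are log2 signals as deposited, so a difference of 1 is a doubling, and signals of different genes are not compared, because probes differ in affinity. The arrays fell into 3 sets by correlation that crossed the treatments. Set A held Dactolisib 1, DMSO 2 and DMSO 4, set B held Dactolisib 2, Dasatinib 2 and DMSO 3, and set C held Dasatinib 1 and DMSO 5. Each array is therefore also given against the DMSO arrays of its own set, and each comparison was fitted with limma both as the study's methods describe (no block) and within array sets (the set as a block). The sets were defined from the data and are not a label of the study. They come from the same probe sets that were then tested. The p-values within sets make no allowance for that choice and may be too small. The granulocyte genes S100a8 (13.53 to 13.85) and S100a9 (13.69 to 14.12) had high log2 signals on all 8 arrays, but other granulocyte markers of the list of 10 varied with the array set or the array. The granule gene Ltf had log2 signals of 12.30 to 12.94 in sets A and C and of 9.29 to 9.51 in set B, and Csf3r, the G-CSF receptor, had 11.62 and 11.64 in set C and 12.40 to 12.60 elsewhere. Ngp, another granule gene, ran from 6.70 on Dasatinib 1 to 10.45 on DMSO 2. Epithelial RNA moved with the sets: the log2 signal of the keratin gene Krt8 was 13.37 and 13.31 on the 2 arrays of set C, but 9.88 to 10.43 in set A and lowest, 8.09 to 8.33, in set B. Svs2, a secreted protein of the seminal vesicle, had 12.12 on Dasatinib 1 and 13.09 on DMSO 5 in set C, and at most 2.29 elsewhere. The Dactolisib comparison within sets draws nothing from set C, whereas 1 of the 2 Dasatinib arrays lies in it. In such bulk RNA, fewer cells of a type and less RNA per cell cannot be told apart.

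Within array sets, Dactolisib raised Bbc3 by 0.42 ± 0.08 (log2 ± SE) and raised 3 of the 6 Mcl1 probe sets, by 0.36 to 0.39, while 1 of the 3 Bmf probe sets fell by 0.34. Of the 27 member probe sets, 4 passed as higher and 1 as lower (adjusted p < 0.05), where 2.19% of all tested probe sets passed as higher and 4.20% as lower. Counted by the representing probe set, 1 of 9 members passed, Bbc3, against 2.24% of all genes higher and 4.66% lower. Without the block no probe set of any gene passed, member or not (0% of 30024 in either direction); at an unadjusted p under 0.05, 4 member probe sets were higher, all of Mcl1, and 0 lower, where 2.89% and 3.35% of all tested probe sets were. Dasatinib moved no member past the threshold in either fit, and no probe set of any gene passed there. Without the block, 0 member probe sets were higher and 0 lower under Dasatinib at an unadjusted p under 0.05, where 0.173% and 0.193% of all tested probe sets were.

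**Figure D1:**
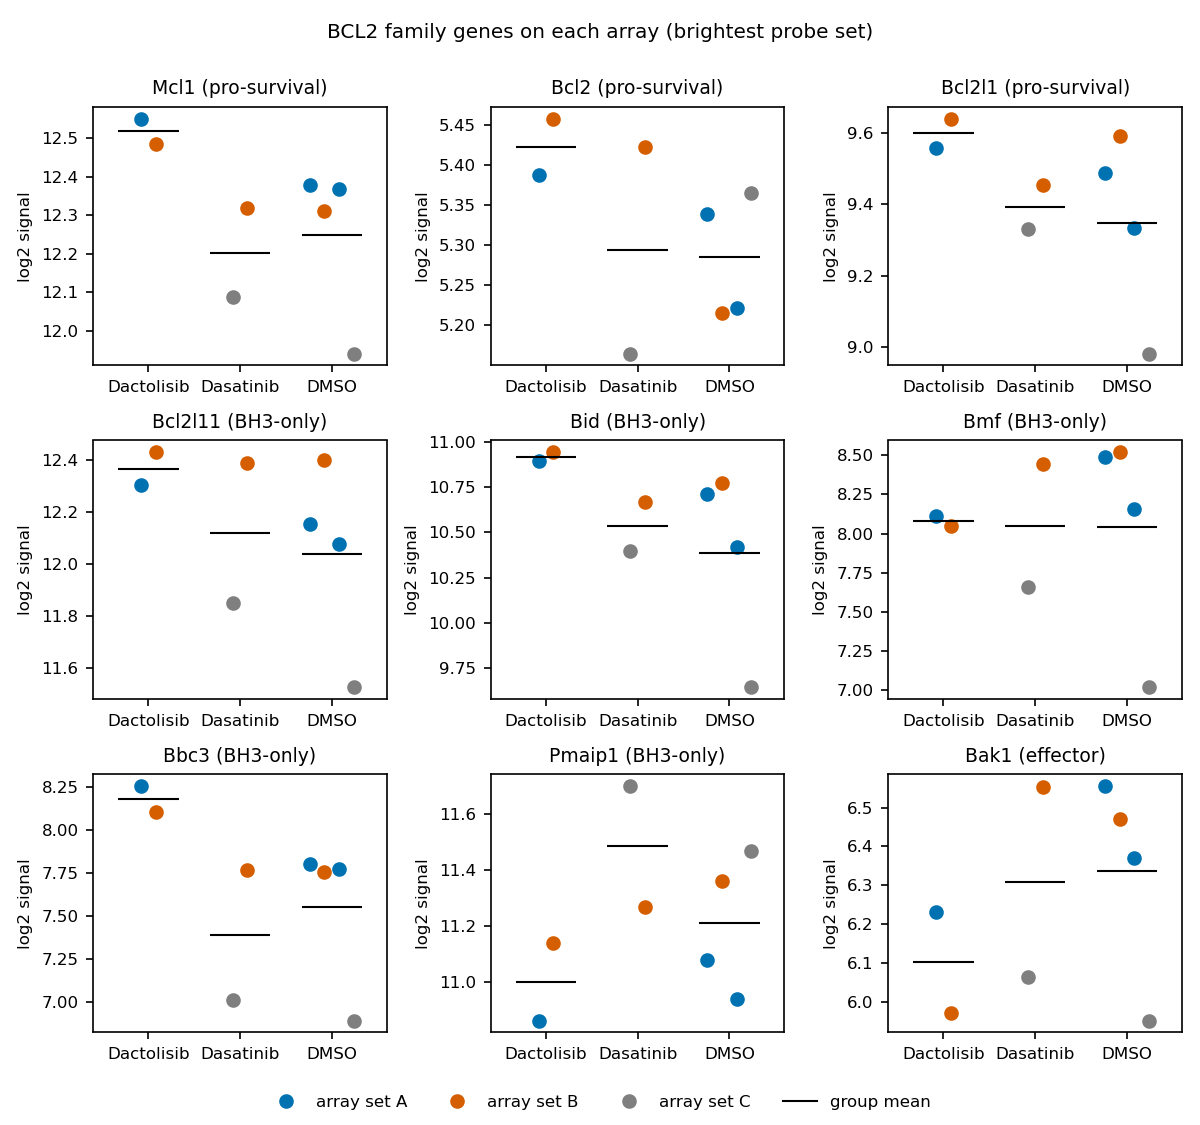
Log2 signal (y axis) of the probe set representing each of the 9 genes on each array, by treatment (x axis), with the group mean as a line and the array set as the color. Both Dactolisib arrays lay above all 4 DMSO arrays for Mcl1, Bcl2, Bid and Bbc3, where 11.1% of all genes tested did so. The 2 arrays of set C (gray) were the 2 lowest for 6 of the 9 genes and the 2 highest for Pmaip1. The share of all genes with set C lowest or highest was not counted.

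Among the pro-survival members, Mcl1 had log2 signals of 12.55 and 12.49 on the 2 Dactolisib arrays and of 12.09 and 12.32 on the Dasatinib arrays, against 12.38, 12.31, 12.37 and 11.94 on DMSO 2 to 5. The Dactolisib arrays were the 2 highest of the 8, and the lowest values came from set C (Dasatinib 1 and DMSO 5). Against DMSO of their own set, both Dactolisib arrays were higher by 0.18, while the 2 DMSO arrays of set A differed by 0.01. This probe set gave 0.18 ± 0.08 under Dactolisib within array sets and did not pass (limma, adjusted p = 0.215). Its unadjusted 95% interval ran from -0.0012 to 0.35.

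All 6 Mcl1 probe sets were positive under Dactolisib within sets. The probe set with the largest difference had 10.86 and 10.95 on the Dactolisib arrays and 10.53 and 10.60 on the Dasatinib arrays, against 10.48, 10.58, 10.44 and 10.35 on DMSO 2 to 5. The Dactolisib values did not overlap those of any other array, and the difference within sets was 0.39 ± 0.08 (limma, adjusted p = 0.0309). Another 2 probe sets rose by 0.36 and 0.37 (limma, adjusted p = 0.0383 and 0.0377). The suffix _x_at marks probe sets whose probes can also match other transcripts, and all 3 that passed carry it. Of those without it, the differences of the other 2 were 0.32 (adjusted p = 0.0585) and 0.21 (adjusted p = 0.172). The passing calls of these 3 probe sets were lost when Dactolisib 1, Dactolisib 2, DMSO 3 or DMSO 4 was left out, with adjusted p up to 0.265, and without the filter on dim probe sets (adjusted p 0.0536 to 0.0660). For 2 of them the call was also lost with all 8 arrays in one fit (0.0555 and 0.0547). Their differences stayed between 0.34 and 0.42 in these runs.

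Bcl2, the founding member of the family, had low log2 signals of 5.39 and 5.46 on the Dactolisib arrays and of 5.16 and 5.42 on the Dasatinib arrays, against 5.34, 5.22, 5.22 and 5.36 on DMSO 2 to 5. The Dactolisib arrays were above every DMSO array by a small margin, and the Dasatinib arrays lay on both sides. The Dactolisib difference within sets was 0.17 ± 0.08 (limma, adjusted p = 0.292), and the 2 DMSO arrays of set A were 0.12 apart. Bcl2l1, which encodes Bcl-xL, had 9.56 and 9.64 on the Dactolisib arrays and 9.33 and 9.45 on the Dasatinib arrays, against 9.49, 9.59, 9.33 and 8.98 on DMSO 2 to 5. Both groups of drug arrays overlapped the DMSO arrays, while both Dactolisib arrays lay above both Dasatinib arrays, and the Dactolisib difference within sets was 0.11 ± 0.09 (limma, adjusted p = 0.519). All tested probe sets of Bcl2 (3) and Bcl2l1 (3) were positive under Dactolisib within sets and none passed.

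Among the BH3-only members, Bbc3, a potent killer protein and a p53 target, had log2 signals of 8.26 and 8.11 on the Dactolisib arrays and of 7.01 and 7.77 on the Dasatinib arrays, against 7.80, 7.75, 7.78 and 6.89 on DMSO 2 to 5. Both Dactolisib arrays lay above all 6 others, and the values of set C were the lowest. Against DMSO of their own set the Dactolisib arrays were higher by 0.47 and 0.35, while the 2 DMSO arrays of set A differed by 0.02 and the Dasatinib arrays were 0.12 and 0.01 above their own DMSO. The Dactolisib difference within sets was 0.42 ± 0.08 (95% interval 0.24 to 0.60; limma, adjusted p = 0.0270). Without the block it was 0.63 ± 0.29 (limma, adjusted p = 0.775). The call was lost when Dactolisib 1 (0.35, adjusted p = 0.256), Dactolisib 2 or DMSO 3 (0.47 and adjusted p = 0.132 each) was left out. Bbc3 is measured by 1 probe set.

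Bmf responds to loss of attachment and is held by a dynein light chain. It had log2 signals of 8.11 and 8.05 on the Dactolisib arrays and of 7.66 and 8.44 on the Dasatinib arrays. DMSO 2 to 5 had 8.49, 8.52, 8.15 and 7.02. The Dactolisib arrays lay below the 3 DMSO arrays of sets A and B and above that of set C. Against their own set they were lower by 0.21 and 0.47, with the 2 DMSO arrays of set A 0.33 apart. The fit within sets gave -0.32 ± 0.12 (limma, adjusted p = 0.159), and without the block 0.03 ± 0.44. A second Bmf probe set had 5.40 and 5.37 on the Dactolisib arrays and 4.83 and 5.51 on the Dasatinib arrays, against 5.71, 5.71, 5.76 and 4.59 on DMSO 2 to 5. It fell by 0.34 within sets (limma, adjusted p = 0.0471), a call lost when Dactolisib 1, Dactolisib 2, DMSO 3 or DMSO 4 was left out (adjusted p 0.0830 to 0.267), with no filter (0.0811) or with all 8 arrays in one fit (0.189). The third Bmf probe set gave -0.19 (adjusted p = 0.355).

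Bid, which links death receptors to mitochondria once caspase-8 cuts it, had log2 signals of 10.90 and 10.94 on the Dactolisib arrays and of 10.40 and 10.67 on the Dasatinib arrays, against 10.71, 10.77, 10.42 and 9.64 on DMSO 2 to 5. Both Dactolisib arrays were above all DMSO arrays. Their own-set differences were 0.33 and 0.17, about the 0.29 between the 2 DMSO arrays of set A, and the 3 Bid probe sets gave 0.24 to 0.30 within sets with adjusted p of 0.123 to 0.192. Bcl2l11, which encodes Bim, had 12.30 and 12.43 on the Dactolisib arrays and 11.85 and 12.39 on the Dasatinib arrays, against 12.15, 12.40, 12.08 and 11.53 on DMSO 2 to 5. These values overlapped between the groups. All 5 Bcl2l11 probe sets gave differences of 0.08 to 0.16 within sets (adjusted p 0.307 to 0.585). Pmaip1, which encodes Noxa, a binder of MCL1, had 10.86 and 11.14 on the Dactolisib arrays and 11.70 and 11.27 on the Dasatinib arrays, against 11.08, 11.36, 10.94 and 11.47 on DMSO 2 to 5. The Dactolisib arrays were lower than DMSO of their own set by 0.15 and 0.22, and the fit within sets gave -0.18 ± 0.08 (limma, adjusted p = 0.248).

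Of the effectors, Bak1 had log2 signals of 6.23 and 5.97 on the Dactolisib arrays and of 6.06 and 6.55 on the Dasatinib arrays, against 6.56, 6.47, 6.37 and 5.95 on DMSO 2 to 5. The Dactolisib arrays lay below the 3 DMSO arrays of sets A and B. Their own-set differences were -0.23 and -0.50, with the 2 DMSO arrays of set A 0.19 apart. Both Bak1 probe sets were negative within sets, by 0.35 ± 0.10 and 0.27 ± 0.09 (limma, adjusted p = 0.0866 and 0.113), and neither passed. The first passed with 32 added before log2 (adjusted p = 0.0461), in the brightest 15012 probe sets alone (0.0319), with a trended and robust prior (0.0445) and without DMSO 4 (0.0491).

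**Figure D2:**
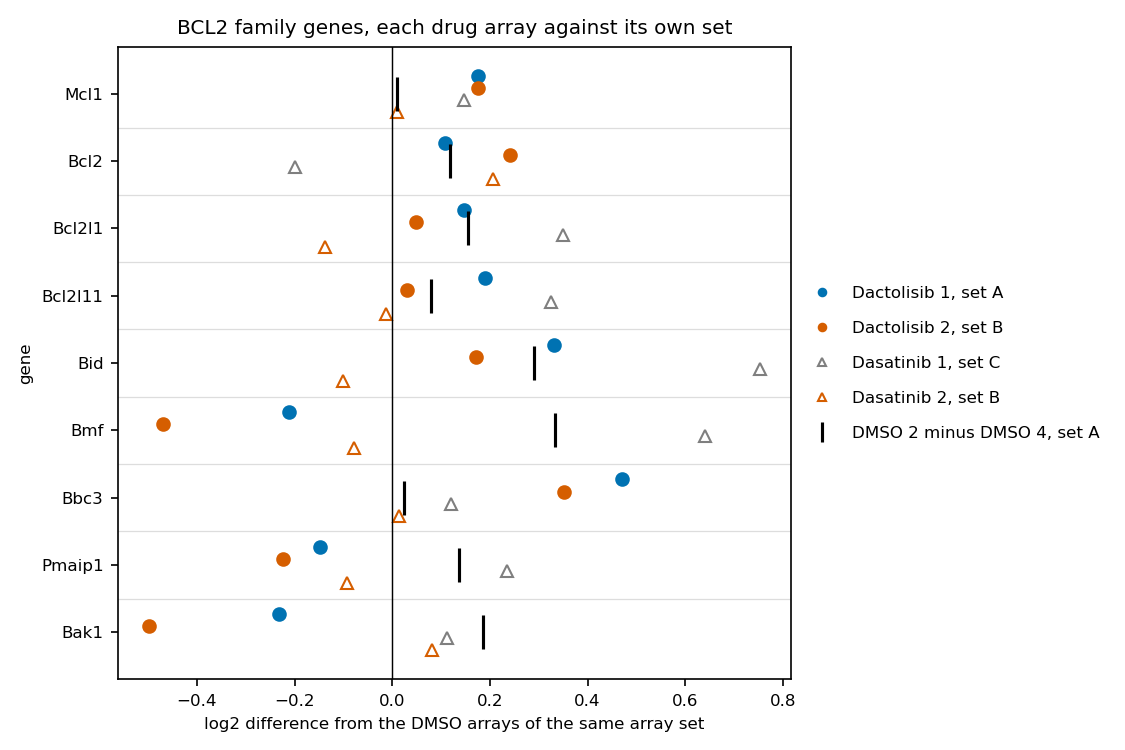
Log2 difference (x axis) of each drug array from the mean DMSO signal in the same array set, per gene (y axis), with the difference between the 2 DMSO arrays of set A as a black bar. By the representing probe sets, the 2 Dactolisib arrays (circles) lay on the same side of 0 for all 9 genes. They lay above 0 for 6 and below 0 for Bmf, Pmaip1 and Bak1.

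Set side by side by role and by the representing probe sets, the 3 pro-survival members were higher on both Dactolisib arrays in their own sets. The 6 measured pro-death members (5 BH3-only genes and Bak1) divided into 3 higher on both and 3 lower on both. The other tested Bcl2l1 probe sets were higher by 0.21 and 0.22 on Dactolisib 1 but lower by 0.021 and 0.024 on Dactolisib 2. Over all genes tested, 31.6% were higher on both and 35.4% lower on both, and with 3 and 6 genes no difference between the roles was tested. The median own-set difference of the pro-survival members was 0.15 on Dactolisib 1 and 0.18 on Dactolisib 2, where the median of all genes was -0.02 and 0.00. The pro-death members had medians of 0.02 and -0.10. On the Dasatinib arrays the pro-survival members had medians of 0.15 and 0.01 and the pro-death members 0.28 and -0.04, where all genes had 0.02 and -0.01. For the groups as a whole, 11 of the 27 member probe sets, and 4 of the 9 genes, lay higher on both Dactolisib arrays than on all 4 DMSO arrays, and 0 lay lower. The 11 include all tested probe sets of Mcl1 and Bid. On both Dactolisib arrays Bmf and Bak1 lay below the DMSO arrays of sets A and B. Both genes lay above DMSO 5 of set C, which holds no Dactolisib array. Over all tested features these shares were 11.4% of probe sets and 11.1% of genes higher, and 9.58% and 10.8% lower.

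The promoters of 3 members are shown. Bbc3 and Mcl1 had probe sets that rose under Dactolisib within sets. Bcl2l11 is the other BH3-only gene, among those searched, with the same short match as Bbc3. The promoters are the 250 bases before a RefSeq transcript start (mouse build GRCm38.p6), on the strand of the gene. Capitals mark the core FoxO motif GTAAACA, which was searched on both strands with the E-box CACGTG, the cyclic AMP response element TGACGTCA and the composite ATF4 and CHOP site TGATGCAA.
Bbc3, the second of 3 starts, chr7:16310011-16310260, plus strand: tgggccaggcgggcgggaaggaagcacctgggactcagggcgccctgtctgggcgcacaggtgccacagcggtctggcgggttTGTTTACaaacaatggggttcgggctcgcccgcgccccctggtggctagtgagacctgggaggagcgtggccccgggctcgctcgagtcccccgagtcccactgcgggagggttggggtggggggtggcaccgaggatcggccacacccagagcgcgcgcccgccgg
Mcl1, chr3:95658471-95658720, plus strand: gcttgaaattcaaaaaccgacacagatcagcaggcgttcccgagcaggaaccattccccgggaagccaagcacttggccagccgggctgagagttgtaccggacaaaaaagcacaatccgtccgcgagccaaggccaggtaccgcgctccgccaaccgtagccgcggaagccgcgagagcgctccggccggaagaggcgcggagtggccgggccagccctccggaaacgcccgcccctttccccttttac
Bcl2l11, the first of 2 starts, chr2:128125788-128126037, plus strand: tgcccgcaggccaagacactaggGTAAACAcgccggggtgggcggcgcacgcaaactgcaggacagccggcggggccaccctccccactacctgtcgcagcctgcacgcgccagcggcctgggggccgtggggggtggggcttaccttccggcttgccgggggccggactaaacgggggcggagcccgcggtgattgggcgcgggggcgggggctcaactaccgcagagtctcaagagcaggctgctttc
Of the 10 members, 9 were searched, with 16 windows in all, and Pmaip1 was not searched. The FoxO core stood once before the second Bbc3 start, on the other strand (TGTTTAC), and once before the first Bcl2l11 start. It stood in no other member window searched. Of all 32851 windows of this length, 3.17% hold it. The E-box, held by 6.02% of all windows, stood before the third Bbc3 start and before Bax. No member window searched held the cyclic AMP response element (1.55% of all windows) or the composite site (0.791%). The 3 windows shown have a GC content of 64.4% to 72.4%, where the median window has 52.4%. These matches are descriptions of the letters, and binding was not measured.

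Dasatinib gave no member difference past the threshold within sets. For 6 of the 9 members the 2 Dasatinib arrays lay on opposite sides of their own DMSO. Over all genes tested only 21.9% were higher on both and 22.8% lower on both, so such a split was common among all genes. On Dasatinib 1 (set C), 8 of the 9 members were above DMSO 5, Bid by 0.75 and Bmf by 0.64, with Bcl2 lower by 0.20. This sets 1 array against 1 array, and the share of all genes above DMSO 5 was not counted. The median difference was 0.23 for the 9 members and 0.02 for all genes tested. Markers of several cell types differed between the same 2 arrays. The Dasatinib 1 minus DMSO 5 log2 difference was -2.24 for Ngp and -1.60 for Mmp8 among the granulocyte markers (median of 10 genes -0.03). It was -1.62 for Krt5 among the epithelial ones (median of 9 genes 0.0020). Among the monocyte and macrophage ones it was 0.74 for Adgre1 and 0.68 for Cd68, but the median of the 10 genes was 0.0041. The 3 seminal vesicle markers had a median of -2.61 and the 6 fibroblast markers one of -0.89. The part of these differences in the member values was not tested. On Dasatinib 2 (set B), the differences from DMSO 3 ran from -0.14 for Bcl2l1 to 0.21 for Bcl2. Mcl1, Bbc3 and Bak1, 3 of the 9 genes, were higher on both, where 21.9% of all genes were, and 0 were lower on both, where 22.8% of all genes were. For Bbc3 the Dasatinib difference within sets was 0.07 ± 0.10 (95% interval -0.16 to 0.30), and for Mcl1 it was 0.08 ± 0.10 (-0.16 to 0.31). For Bid it was 0.33 ± 0.21 (limma, adjusted p = 0.850), and without set C, where 1 Dasatinib array remains, it was -0.10. At an unadjusted p under 0.05, 1 of the 27 member probe sets was higher, of Bid, and 0 lower, where 2.12% and 2.75% of all tested probe sets were.

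**Figure D3:**
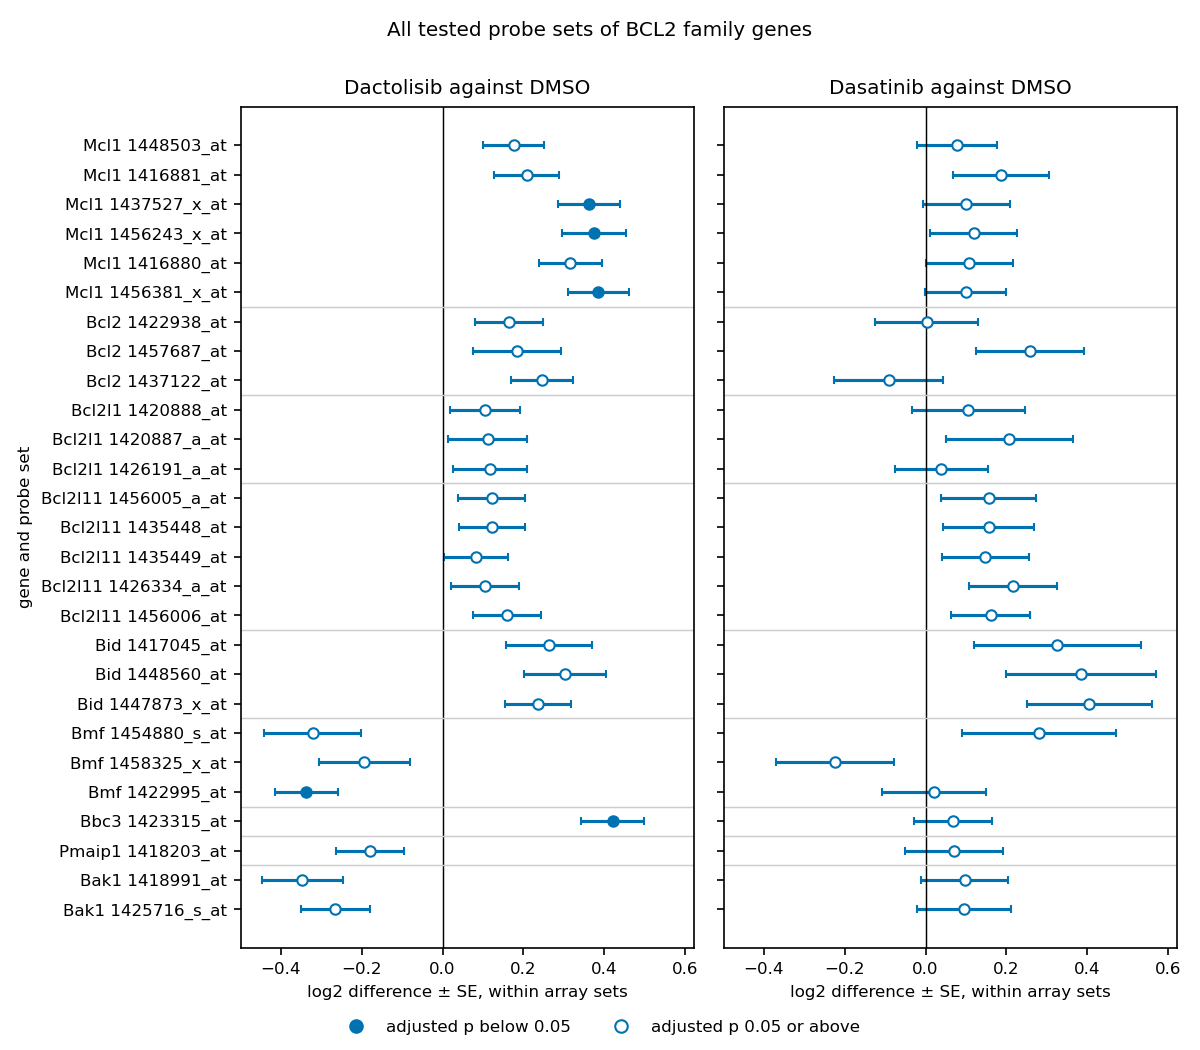
Log2 difference within array sets (x axis, bars are ± 1 SE) of all 27 tested member probe sets (y axis), for Dactolisib (left) and Dasatinib (right) against DMSO, with filled points for adjusted p below 0.05. The 4 filled points right of 0 are Bbc3 and 3 Mcl1 probe sets, the 1 left of 0 is Bmf, and no Dasatinib point is filled.

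The 2 drugs were also compared directly at the same dose and time. No member passed in either fit (limma, adjusted p), and no probe set of any gene did. At an unadjusted p under 0.05, 4 member probe sets were higher (3 of Mcl1 and Bbc3) and 2 lower (Bmf and Bak1) within sets, where 5.35% and 8.93% of all tested probe sets were. Without the block 3 were higher, all of Mcl1, and 0 lower, where 1.53% and 2.11% were. Bak1 was lower under Dactolisib than under Dasatinib by 0.49 ± 0.12 on the log2 scale within sets (95% interval -0.78 to -0.20; limma, adjusted p = 0.158). Bmf was lower by 0.54 ± 0.20 (-0.996 to -0.086; adjusted p = 0.280), and Bbc3 was higher by 0.35 ± 0.10 (0.11 to 0.58; adjusted p = 0.205). Mcl1 differed by 0.12 ± 0.10 (-0.12 to 0.35). In set B, which holds an array of each drug, Dactolisib 2 minus Dasatinib 2 was 0.34 for Bbc3, 0.27 for Bid, 0.17 for Mcl1, -0.39 for Bmf and -0.58 for Bak1. Both drugs share the DMSO arrays, so these values are not independent of the comparisons above.

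The members also differed between array sets, a spread that enters the fits without the block. The mean log2 signal of set B exceeded that of set C by 0.997 for Bmf, 0.93 for Bbc3, 0.77 for Bid, 0.72 for Bcl2l11, 0.40 for Bcl2l1, 0.36 for Mcl1, 0.32 for Bak1 and 0.10 for Bcl2, and the difference for Pmaip1 was -0.33. The 2 arrays of set C were the 2 lowest for 6 members (Mcl1, Bcl2l1, Bcl2l11, Bid, Bmf and Bbc3). Neither this count nor the set B minus set C differences were taken over all genes tested. They are therefore not shown to be particular to the members. The part of epithelial and seminal vesicle RNA in these differences was not tested.

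From 6 lists of other apoptosis genes, 5 of 57 tested genes passed under Dactolisib within sets. Over all genes, 2.24% passed as higher and 4.66% as lower, and no excess of the lists over these shares was tested. All 5 calls were lost, with the direction kept, when Dactolisib 1 (limma, adjusted p 0.163 to 0.284), Dactolisib 2 or DMSO 3 (0.103 to 0.221 each) was left out, and no probe set of any gene passed in those fits. Of the regulators of BCL2 family transcription or stability, 2 rose and 1 fell among 12 tested within sets. Ddit3 (CHOP), a stress factor that acts on Bim and Puma, had log2 signals of 11.29 and 11.39 on the Dactolisib arrays and of 10.30 and 10.89 on the Dasatinib arrays, against 10.64, 10.91, 10.66 and 10.03 on DMSO 2 to 5. Both Dactolisib arrays lay above all others, and the gene rose by 0.57 ± 0.08 (limma, adjusted p = 0.0144). Atf4, which switches on Ddit3 when translation is slowed, had 11.66 and 11.97 on the Dactolisib arrays and 11.80 and 11.58 on the Dasatinib arrays, against 11.31, 11.64, 11.34 and 11.81 on DMSO 2 to 5. It overlapped between groups across the sets and rose within them by 0.33 ± 0.08 (limma, adjusted p = 0.0490), a call also lost without DMSO 2 (0.0646), without DMSO 4 (0.0755), after quantile normalization (0.0616), with no filter (0.0856) or with all 8 arrays in one fit (0.0625).

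Dynll1, a dynein light chain that binds Bim, had log2 signals of 11.18 and 10.79 on the Dactolisib arrays and of 11.83 and 11.31 on the Dasatinib arrays. DMSO 2 to 5 had 11.76, 11.36, 11.67 and 11.72. The Dactolisib arrays were the 2 lowest. Dynll1 fell by 0.55 ± 0.08 within sets (limma, adjusted p = 0.0150), and its other 3 probe sets fell by 0.35 to 0.69. Foxo1 gave -0.29 (adjusted p = 0.0852) and Foxo3 -0.04 (0.844).

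Of p53 and its targets, 1 of 10 tested genes passed, and it fell. Ccng1, cyclin G1, had log2 signals of 7.94 and 7.98 on the Dactolisib arrays and of 8.45 and 8.59 on the Dasatinib arrays, against 8.55, 8.69, 8.82 and 8.51 on DMSO 2 to 5. The Dactolisib arrays lay below all others, and the gene fell by 0.72 ± 0.10 (limma, adjusted p = 0.0138), with all 3 of its probe sets past the threshold. The p53 targets Perp (-0.36, adjusted p = 0.0903) and Sesn2 (-0.37, 0.110) did not pass by the representing probe set; a second Sesn2 probe set fell by 0.39 (0.0312), a call lost without Dactolisib 1, Dactolisib 2, DMSO 3 or DMSO 4 and with no filter (0.0536 to 0.226). Of the apoptosome, caspases and released mitochondrial proteins, 1 of 12 passed. Aifm1, the apoptosis-inducing factor of mitochondria, had 6.23 and 6.24 on the Dactolisib arrays and 7.53 and 6.87 on the Dasatinib arrays, against 6.73, 6.99, 6.62 and 7.28 on DMSO 2 to 5. It fell by 0.57 ± 0.10 (limma, adjusted p = 0.0214), with both Dactolisib arrays below all others.

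None of 5 inhibitor of apoptosis genes, of 9 death receptor genes or of 9 other BCL2 relatives passed under Dactolisib within sets. The lowest p among them belonged to Cflar, which encodes the caspase-8 inhibitor c-FLIP (0.30 ± 0.08; limma, adjusted p = 0.0814), with all 5 of its probe sets between 0.30 and 0.35. Xiap, which blocks caspases, gave -0.27 (0.175) and Birc3 0.21 (0.204), and the BH3-only genes Bik and Bad gave -0.24 (0.229) and -0.16 (0.283). Under Dasatinib none of these 57 tested genes passed in either fit.

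**Figure D4:**
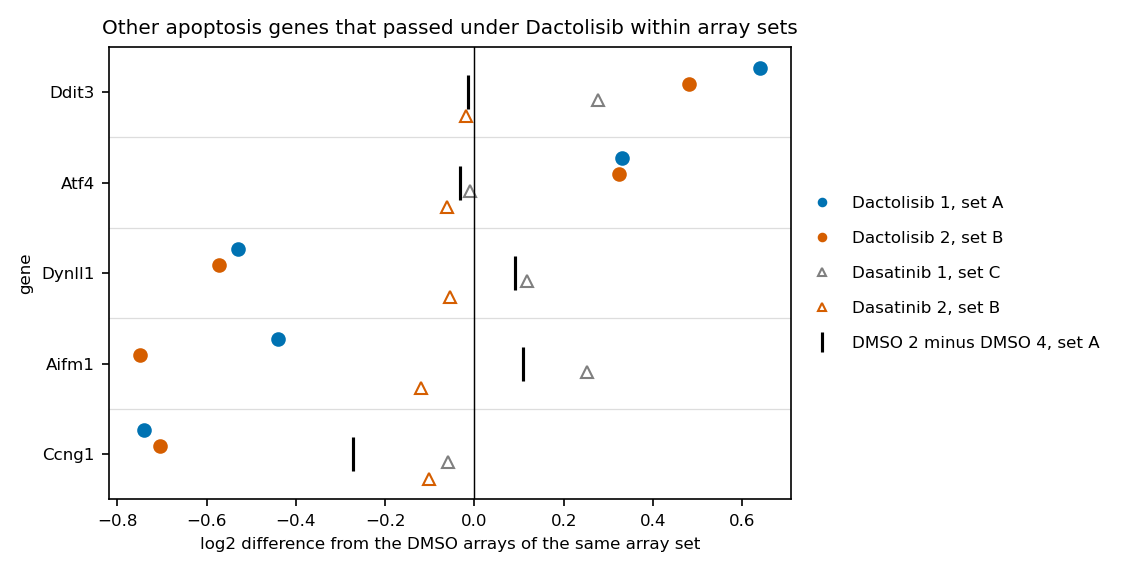
Log2 difference (x axis) of each drug array from the mean DMSO signal in the same array set for the 5 other apoptosis genes (y axis) past the threshold under Dactolisib within sets, with the 2 DMSO arrays of set A as a black bar. Ddit3 and Atf4 lay at 0.32 to 0.64 on the Dactolisib arrays (circles) and the other 3 genes at -0.75 to -0.44, while the Dasatinib arrays (triangles) lay between -0.12 and 0.28.

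Markers of other cells moved with Dactolisib too. Within sets, 9 of 10 monocyte and macrophage markers were lower on both Dactolisib arrays and 4 passed as lower, and their summed linear signal was 9230 to 10591 on Dactolisib arrays against 7133 to 10870 on DMSO arrays. Of the epithelial markers 6 of 9 were lower on both and 2 passed, and of the granulocyte markers 8 of 10 were lower on both and 2 passed. Among all genes tested, 35.4% were lower on both Dactolisib arrays and 4.66% passed as lower. The summed granulocyte signal was 42515 to 51338 on Dactolisib arrays against 43729 to 54532 on DMSO arrays. T cell, B cell, endothelial and fibroblast markers gave no passing gene. The part of these shifts in the member differences was not tested.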

How the data were processed

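RNA of 8 Gr-MDSC samples was measured on Affymetrix mouse genome arrays. The deposited table gives the authors' log2 signals of 45101 probe sets, and these were not normalized again, since the array medians lay between 4.82 and 4.87. The sources differ on the summary (MAS5 in the submitters' processing notes, the oligo package in the paper's methods) and on the extraction (Trizol or RNeasy). Groups were taken from the sample titles, because the treatment field of the 2 Dasatinib samples names Dactolisib.

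Probe sets were joined to genes through GEO's platform table, and 34945 have 1 gene, 932 several and 9160 none, with 64 controls. The brightest probe set assigned to a gene alone stands for that gene, and up to 4 genes of lowest p were named per pathway list. The members, the pathway and marker lists and the array sets were chosen with earlier results of these data known, so no list was tested.

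The 30024 probe sets of highest mean signal, of 45037 without controls, were fitted with limma 3.58.1 in R 4.3.3, with Benjamini-Hochberg adjustment over all of them and a threshold of 0.05. A drug and DMSO entered with 6 arrays, and the drugs were compared in a fit of 8. Array sets are the 3 clusters that average linkage of the arrays' Pearson correlations gave. The lowest Spearman correlation within a set was 0.982 and the highest between sets 0.972. With the set as a block, 2 residual degrees of freedom remain in a fit of 6 arrays and 3 in the fit of 8. The calculation was tested on simulated data. For the fits without the block these data held no spread between array sets, so error rates under that spread were not tested. The number of arrays limits the precision. Promoter sequences are those of RefSeq.

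The alternatives tried were the replicate number as a block, each array left out, all 8 arrays in one fit, array weights, the mean over a gene's probe sets, the methods' t-test, quantile normalization, a linear offset of 32, a limma prior both robust and trended, all probe sets, and the brightest 15012. Leaving out set C was added after its seminal vesicle transcripts had been seen.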

Additional observations from a re-analysis of the deposited data

Results flagged for a closer look

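In the 4 DMSO arrays, DMSO 5 (set C) stood far from the others for 2 of the 9 members. For Bbc3 it had a log2 signal of 6.89 with the nearest other DMSO array at 7.75, and this gap was 0.948 of the range of the 4 arrays. For Mcl1 it had 11.94 with the nearest at 12.31, a gap of 0.841 of the range. Both gaps exceed Dixon's 95% critical value for 4 arrays, which chance alone would exceed in about 1 of 20 groups of alike arrays. That rate does not describe these flags. DMSO 5 is the only DMSO array of set C, and the rule was applied to 9 members on the same arrays. DMSO 5 has no Dactolisib array in its set, so the Dactolisib differences within sets were the same without it (0.42 for Bbc3 and 0.18 for Mcl1).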

How the results depend on the processing

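The fits rest on few arrays. The number of probe sets that passed for Dactolisib against DMSO within sets moved by over 1.5 times in 8 of 13 alternatives, and the other 5 counts of probe sets moved in 1 to 4 of 13 to 18 alternatives each. Some alternatives within sets repeat the same fit, so these are not numbers of separate tests. With the set as a block, 1919 probe sets passed for Dactolisib against DMSO and 1 member did, where without it 0 of both passed. The methods' t-test at its unadjusted threshold gave 935 probe sets higher and 955 lower for Dactolisib (4 and 0 of members) and 136 and 210 for Dasatinib (0 and 0 of members), and 0 after adjustment. Within sets, the Dactolisib count was 3919 with 32 added before log2 (2 members), 1233 with no filter, 3538 in the brightest 15012 (2 members), 3940 with a trended and robust prior (3 members) and 1087 with all 8 arrays in one fit. Leaving out 1 array gave 0 to 2854 probe sets and 0 to 3 members. For Dactolisib against Dasatinib within sets the counts were 240, 205 and 281 with 32 added, the brightest 15012 and the trended prior, and 0 to 1118 with 1 array left out. Counts with 1 array left out were 0 to 764 for Dasatinib against DMSO within sets, 0 to 2 without the block, and 0 to 4 for Dactolisib against Dasatinib without the block, with 0 members throughout. The cause of these moves was not tested.

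The 54 member results had 858 alternative values in all. Of these values, 777 kept direction and side of the threshold, 71 turned sign, 7 came to pass and 3 no longer passed. None of the 71 passed in either run. Some of the values within sets repeat the same fit, so the tally is not a count of separate tests. For Dactolisib against DMSO, leaving out set C returned the reported fit (Bbc3 0.42). Leaving out Dactolisib 2 or DMSO 3 gave the same value (Bbc3 0.47). For Dasatinib against DMSO, leaving out Dasatinib 1 or set C also gave the same value (Bid -0.10). For Bmf under Dactolisib without the block (0.03 as reported) the value was -0.32 with the set as a block, -0.26 with array weights, -0.0071 for the mean of its probe sets and -0.31 without set C. For Dasatinib against DMSO the block gave 0.078 for Mcl1, 0.068 for Bbc3 and 0.097 for Bak1. Quantile normalization gave -0.012 and 32 added -0.0039 for Bmf, array weights -0.036 for Bcl2l1, -0.015 for Bcl2l11, -0.047 for Bid and -0.28 for Bmf, and the mean of probe sets 0.074 for Mcl1 and -0.24 for Bmf. Without set C, Bcl2l1 was -0.017 and Bak1 0.087. Within sets, Dasatinib gave -0.0017 for Bcl2 with all 8 arrays, and without set C -0.14 for Bcl2l1, -0.012 for Bcl2l11, -0.10 for Bid, -0.077 for Bmf and -0.093 for Pmaip1. For Dactolisib against Dasatinib the block gave -0.013 for Bcl2l11 and -0.54 for Bmf, and leaving out set C -0.020 and -0.36. Within sets it was -0.030 for Bcl2l1 and -0.0090 for Bid with the mean of probe sets, and -0.0029 for Bcl2 and 0.089 for Bcl2l11 without set C. For Dactolisib against DMSO with 1 array left out, Bmf ran from -0.31 to 0.19. For Dasatinib against DMSO with 1 array left out, Mcl1 ran from -0.16 to 0.069, Bbc3 from -0.55 to 0.21, Bak1 from -0.27 to 0.22, Bcl2 from -0.12 to 0.14, Bcl2l1 from -0.078 to 0.12, Bcl2l11 from -0.19 to 0.35, Bmf from -0.39 to 0.40, and Bid from -0.10 to 0.28. For Dasatinib against DMSO within array sets with 1 array left out, Bcl2l1 ran from -0.14 to 0.35, Bcl2l11 from -0.012 to 0.33, Bid from -0.10 to 0.75, Bmf from -0.077 to 0.64, Pmaip1 from -0.093 to 0.23, and Bcl2 from -0.20 to 0.21. For Dactolisib against Dasatinib with 1 array left out, Bmf ran from -0.36 to 0.42, Bcl2l11 from -0.020 to 0.52, and Bak1 from -0.45 to 0.037. For Dactolisib against Dasatinib within array sets with 1 array left out, Bcl2l11 ran from -0.20 to 0.089, Bcl2 from -0.0029 to 0.36, Bcl2l1 from -0.24 to 0.21, and Bid from -0.49 to 0.32. The 2 drugs share the replicate numbers 1 and 2, and nothing in the labels says that they pair samples. The differences between arrays 1 and 2 of the 2 drugs correlated at 0.559 across 30024 probe sets, which are not independent replicates. With the replicate block 0 probe sets and 0 members passed for Dactolisib against Dasatinib (Bbc3 0.79, adjusted p = 0.733), as without it. No paired analysis was possible because a drug and DMSO share only number 2.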
